A study of Mus musculus with 22 samples.

Results

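Donor CD4 T cells taken from the gut of transplant recipients given an antibody against IL-2 (anti-IL-2) were set against the same cells from recipients given control IgG. These gut CD4 cells make up 5 of the 22 RNA-seq libraries of the study, and they were chosen by the labelled cell type, tissue and treatment. The labels give 3 anti-IL-2 libraries, of batches 181201, 181212 and 190306, and 2 IgG libraries, of batches 181212 and 190306. In every group, spleen and bone marrow cells of WT C57BL/6 mice were injected into lethally irradiated WT BALB/C mice, so donor T cells met a mismatched host. From day 0 to day 6 the recipients received IgG or the anti-IL-2 monoclonal antibody on alternate days. On day 7 donor T cells were purified by flow cytometry from spleen and from colon, which is called gut here. Donors and recipients were both labelled WT, and the labels give no age of the mice. The labels do not say whether a library came from 1 mouse or from pooled mice, nor whether libraries of a batch share mice. The antibody was given to the recipient and not to isolated cells, and the sort was for donor CD4 cells as a whole, so regulatory and conventional cells were measured together.

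IL-2 is a cytokine made mainly by activated CD4 T cells. It binds a receptor of an alpha chain (Il2ra, CD25), a beta chain shared with IL-15 (Il2rb) and the common gamma chain (Il2rg), and signals through the kinases JAK1 and JAK3 to the transcription factors STAT5A and STAT5B. STAT5 induces Il2ra itself and the feedback inhibitors Cish and Socs2, sustains FOXP3-positive regulatory T cells, favours cytotoxic and Th2 programmes, and opposes follicular helper and Th17 programmes. After allogeneic transplantation, donor T cells that enter the gut can cause graft-versus-host disease. The study asked what IL-2 blockade does to this pathway in the donor T cells.

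Promoters of Cish and Il2ra, from the RefSeq table of assembly GRCm38.p6, are shown because these genes give the pathway's read-out in the results. Of the symbols Cish, Il2ra and Socs2, 2 matched that table. Each sequence runs 5′ to 3′ from 250 bases before to 50 bases after the RefSeq start, and capitals mark matches to TTCNNNGAA, the core pattern that STAT5 binds. The pattern reads alike on both strands. The windows follow RefSeq's starts, which are not the outermost GENCODE gene boundaries given with the levels: the RefSeq start lies 633 bases inside the GENCODE gene for Cish and 15 bases before it for Il2ra.
Cish, chr9:107296409-107296708, plus strand: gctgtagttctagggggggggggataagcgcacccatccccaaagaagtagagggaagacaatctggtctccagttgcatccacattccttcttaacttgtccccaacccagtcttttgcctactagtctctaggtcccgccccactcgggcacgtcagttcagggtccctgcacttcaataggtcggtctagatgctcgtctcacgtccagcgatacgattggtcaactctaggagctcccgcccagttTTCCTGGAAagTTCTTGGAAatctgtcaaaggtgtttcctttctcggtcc
Il2ra, chr2:11642542-11642841, plus strand: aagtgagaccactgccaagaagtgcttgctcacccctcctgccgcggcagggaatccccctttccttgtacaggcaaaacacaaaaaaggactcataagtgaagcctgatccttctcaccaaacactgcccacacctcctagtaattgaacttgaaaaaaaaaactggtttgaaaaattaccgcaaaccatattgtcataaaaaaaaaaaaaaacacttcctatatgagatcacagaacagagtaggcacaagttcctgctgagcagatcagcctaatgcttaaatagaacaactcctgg
The Cish window held 2 matches, which start 0 and 11 bases after the RefSeq start, and the Il2ra window held 0. Of 32851 promoters of the same length in the table, 2726 (8.3%) held at least 1 match.

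The 5 libraries held 14628806 to 23978193 counts, within the range of 14628806 to 24518362 over all 22. They carried the RNA of CD4 T cells: Cd4 stood at 2329.5, 2373 and 2609 CPM in the anti-IL-2 libraries of batches 181201, 181212 and 190306 and at 2424 and 2512 CPM in the IgG libraries of batches 181212 and 190306. CPM is a count divided by the scaled library size. Cd3e, a chain of the T cell receptor complex, lay between 785 and 955 CPM, while Cd8a did not exceed 3.59 CPM and Cd8b1, the other CD8 chain, lay between 8.81 and 11.7 CPM. Of 15 T cell identity genes tested, 1 passed the test in batch 181212 (Cd5, higher) and 0 in batch 190306. The shares of all genes that passed were 6.92% and 4.62%. Within a batch each treatment had 1 gut CD4 library. The edgeR quasi-likelihood fit therefore took its spread from the other populations of batches 181201 and 181212, with 4 residual degrees of freedom, and assumed that gut CD4 libraries vary like them. Standard errors (SE) and p-values carry that assumption. They also treat the libraries as independent, which would not hold where libraries of a batch share mice. Fold changes are log2, anti-IL-2 over IgG, given ± SE, and where a gene has 2 of them the first is of batch 181212 and the second of batch 190306. Adjusted p-values are Benjamini-Hochberg values over all 12782 genes tested, with a threshold of 0.05.

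The labelled difference ran opposite ways in the 2 batches that hold both treatments, so the batches are given apart and the libraries are called by their labels. In batch 181212, 884 of 12782 genes (6.92%) passed the test, 469 (3.67%) higher and 415 (3.25%) lower in the library labelled anti-IL-2. In batch 190306, 590 (4.62%) passed, 343 (2.68%) higher and 247 (1.93%) lower. Of the 884 genes, 736 (83.3%) had the opposite sign in batch 190306, and of the 590 genes, 515 (87.3%) had the opposite sign in batch 181212. In all, 259 genes (2.03%) passed in both batches in opposite directions, which is 29.3% of the 884 and 43.9% of the 590. Only 10 genes (0.0782%) passed in both in the same direction. A direct test of the batch difference called 1455 genes (11.4%), 642 (5.02%) with a higher and 813 (6.36%) with a lower value in batch 181212. Across the 8732 genes whose mean log2 CPM was 3 or more, the log2 fold changes of the batches had r = -0.509, given as a description, since genes of a library share its depth and composition. The spleen CD4, spleen CD8 and gut CD8 populations also had batch 190306 opposite for Il2ra, with direct differences of 1.76, 1.83 and 1.64 in log2 CPM there. These populations may come from the same mice, so they are not counted as independent repeats.

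**Figure D1:**
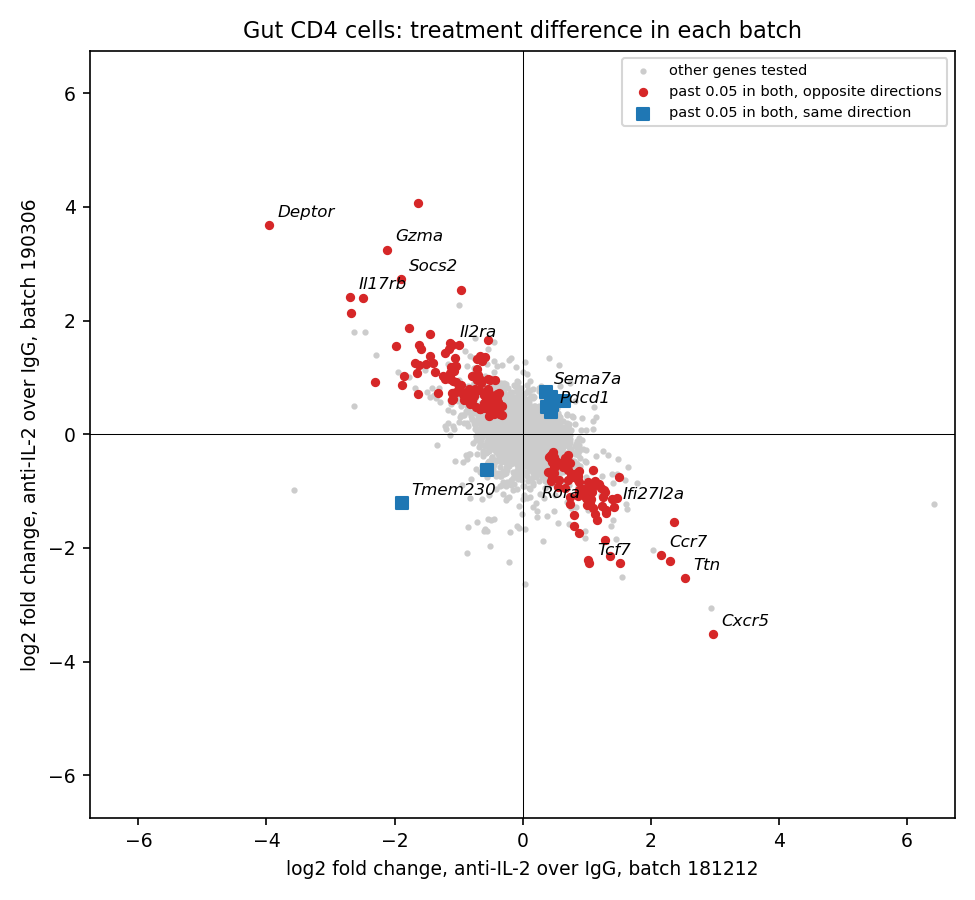
Log2 fold change of anti-IL-2 over IgG in batch 181212 (horizontal) against that in batch 190306 (vertical), for the 8732 genes whose mean log2 CPM was 3 or more. Genes past 0.05 in both batches lie mostly in the upper left and lower right, and a few squares mark those with the same direction.

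The third anti-IL-2 library, of batch 181201, has no IgG partner and took no part in the tests within batches. Of the 884 genes called in batch 181212, its level was nearer to the anti-IL-2 library than to the IgG library of batch 181212 in 799 (90.4%), against 64.9% of all genes tested. Of the same 884 genes, the library labelled IgG of batch 190306 was nearer to it than the library labelled anti-IL-2 of that batch in 686 (77.6%), against 58.6% of all genes tested. The called genes were selected for a gap between the same paired libraries of batch 181212, so the share of all genes is not a matched comparison. These shares are therefore a description only. The labels were kept as given, and whether they name the libraries of batch 190306 correctly was not tested. Fitted with batch as a term over all batches, anti-IL-2 against IgG called 0 of 12841 genes in edgeR. In that fit 750 genes had an unadjusted p under 0.05, and DESeq2 called 8 and limma voom 0.

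The read-out of IL-2 signalling differed in both batches, in opposite directions. Il2ra (chromosome 2, 11642807 to 11693193 in mm10, plus strand) had 95.6, 93.2 and 352 CPM in the anti-IL-2 libraries of batches 181201, 181212 and 190306, against 201 and 119 CPM in the IgG libraries of batches 181212 and 190306. In batch 181212 it fell, with a log2 fold change of -1.11 ± 0.17 (adjusted p = 0.00822), and in batch 190306 it rose, at 1.57 ± 0.17 (adjusted p = 0.00171). The anti-IL-2 libraries of batches 181201 and 181212 were low and alike, and that of batch 190306 was the highest of all 5. In bulk RNA, fewer cells that carry a transcript and less of it per cell cannot be told apart. Socs2, a feedback inhibitor of cytokine receptors (chromosome 10, 95385362 to 95417180, minus strand), had 10.2 CPM in anti-IL-2 and 38.1 CPM in IgG in batch 181212, 23.6 CPM in anti-IL-2 and 3.55 CPM in IgG in batch 190306, and 9.56 CPM in anti-IL-2 in batch 181201. Its log2 fold change was -1.90 ± 0.19 (adjusted p = 0.00058) in batch 181212 and 2.73 ± 0.22 (adjusted p = 8.67e-05) in batch 190306. Cish, whose promoter is shown above (chromosome 9, 107296026 to 107302784, plus strand), had 210.2, 215 and 509 CPM in the anti-IL-2 libraries of batches 181201, 181212 and 190306, against 311 and 291 CPM in the IgG libraries of batches 181212 and 190306. It fell in batch 181212, at -0.54 ± 0.13 (adjusted p = 0.0386), and rose in batch 190306, at 0.81 ± 0.13 (adjusted p = 0.00759). For all 3 genes the groups overlapped when the batches were put together.

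Most of the other pathway genes did not pass the test. Il2rb was at -0.06 ± 0.09 (adjusted p = 0.747) in batch 181212 and rose by 0.42 ± 0.09 (adjusted p = 0.0294) in batch 190306. The transcripts of Il2rg, Jak1, Jak3, Stat5a and Stat5b passed in neither batch, with log2 fold changes of -0.05 to 0.27 in batch 181212 and -0.23 to 0.11 in batch 190306. Il2, the cytokine itself, was low, with 5.62 CPM in anti-IL-2 and 2.11 CPM in IgG in batch 181212, 4.85 CPM in anti-IL-2 and 8.19 CPM in IgG in batch 190306, and 5.02 CPM in anti-IL-2 in batch 181201. It passed in batch 181212 (1.41 ± 0.38 with adjusted p = 0.049) and not in batch 190306 (-0.76 ± 0.34 with adjusted p = 0.264). Il21r, the receptor for the related cytokine IL-21, rose in batch 181212 by 0.56 ± 0.11 (adjusted p = 0.0148). Of 14 tested genes of IL-2, its receptor and signalling, 2 rose and 1 fell in batch 181212, and 2 rose in batch 190306. The share of all genes that passed was 6.92% in batch 181212 and 4.62% in batch 190306. Of 8 SOCS genes, Cish and Socs2 were the ones called, lower in batch 181212 and higher in batch 190306; Socs1 was at -0.14 ± 0.12 (adjusted p = 0.548) and 0.09 ± 0.12 (adjusted p = 0.734), and Socs3 at 0.23 ± 0.22 (adjusted p = 0.616) and -0.49 ± 0.22 (adjusted p = 0.297).

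**Figure D2:**
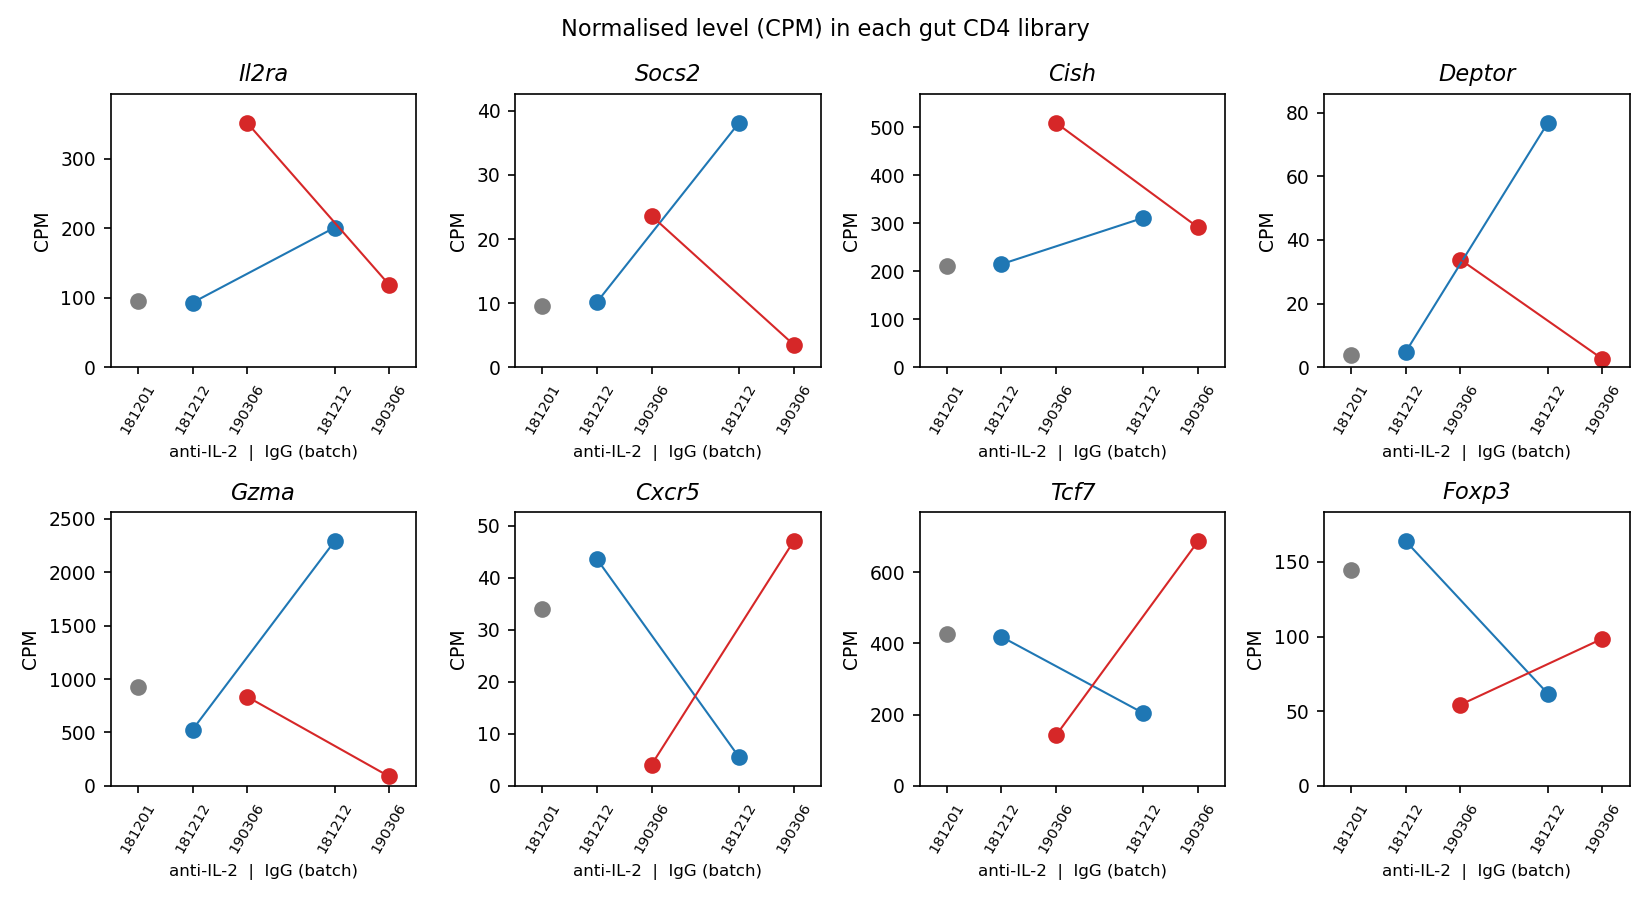
Level in CPM (vertical axis, from 0) of 8 genes in each gut CD4 library, with the 3 anti-IL-2 libraries left and the 2 IgG libraries right in each panel. Each point is 1 library, and lines join the libraries of batch 181212 (blue) and batch 190306 (red); in all 8 panels the 2 lines slope opposite ways.

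The wider list of 49 tested IL-2 and STAT5 targets did not move one way. In batch 181212, where 6.92% of all genes passed, 4 rose and 7 fell. The median log2 fold change was -0.02 against -0.0042 for all genes. In batch 190306, where 4.62% passed, 10 rose and 4 fell, with a median of 0.10 against 0.02 for all genes. Beside Il2ra, Cish and Socs2, the members lower in batch 181212 included Il18r1, a chain of the IL-18 receptor (-0.70 ± 0.07 with adjusted p = 0.000637), and Emp1, a membrane protein (-0.83 ± 0.14 with adjusted p = 0.00862). Ahr, the aryl hydrocarbon receptor that senses dietary and microbial ligands, fell in batch 181212 (-0.93 ± 0.10 with adjusted p = 0.00058) and rose in batch 190306 (0.73 ± 0.09 with adjusted p = 0.00171). Bcl2, an inhibitor of apoptosis, passed in neither (-0.24 ± 0.14 with adjusted p = 0.331 and 0.35 ± 0.14 with adjusted p = 0.2). Gzmb, which encodes granzyme B, had 1196, 888 and 1017 CPM in the anti-IL-2 libraries of batches 181201, 181212 and 190306, against 884 and 623 CPM in the IgG libraries of batches 181212 and 190306. It was at 0.01 ± 0.10 (adjusted p = 0.977) in batch 181212 and rose in batch 190306, at 0.71 ± 0.10 (adjusted p = 0.00297).

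Deptor and Gzma were among the genes with the largest changes in either batch, with opposite signs. Deptor, an inhibitor of mTOR (chromosome 15, 55112317 to 55259271, plus strand), had 4.94 CPM in anti-IL-2 and 76.8 CPM in IgG in batch 181212, 33.8 CPM in anti-IL-2 and 2.63 CPM in IgG in batch 190306, and 4.001 CPM in anti-IL-2 in batch 181201. Its log2 fold change was -3.96 ± 0.23 (adjusted p = 3.69e-05) in batch 181212 and 3.68 ± 0.25 (adjusted p = 4.6e-05) in batch 190306. Deptor was thus at 5 CPM or less in 3 libraries, namely anti-IL-2 of batches 181201 and 181212 and IgG of batch 190306. Gzma, the granule protease granzyme A (chromosome 13, 113093825 to 113100981, minus strand), had 927, 526 and 835 CPM in the anti-IL-2 libraries of batches 181201, 181212 and 190306, against 2290.4 and 87.9 CPM in the IgG libraries of batches 181212 and 190306. It was at -2.12 ± 0.17 (adjusted p = 0.00058) in batch 181212 and at 3.25 ± 0.17 (adjusted p = 6.52e-05) in batch 190306. The gap between the 2 IgG libraries of Gzma was wider than the gap between treatments in either batch.

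Other genes lower in the anti-IL-2 library of batch 181212 were Il17rb, a receptor for IL-25 (-2.70 ± 0.28 with adjusted p = 0.000637), Ltb4r1, a leukotriene B4 receptor (-2.49 ± 0.31 with adjusted p = 0.0017), and Adgrg3, an adhesion G protein-coupled receptor (-2.68 ± 0.27 with adjusted p = 0.00058). All 3 rose in batch 190306, at 2.42 ± 0.30 (adjusted p = 0.00157), 2.39 ± 0.30 (adjusted p = 0.00157) and 2.13 ± 0.23 (adjusted p = 0.000887). Itsn1, an endocytic scaffold, Rasl11a, a Ras-like protein, Lrp5, a Wnt co-receptor, and Ffar2, a receptor for short-chain fatty acids, fell, with log2 fold changes of -2.30, -1.88, -1.86 and -1.97 in batch 181212. In batch 190306 they rose, at 0.92, 0.87, 1.03 and 1.55. Rasgrp4, a Ras exchange factor, fell in batch 181212 (-2.64 ± 0.30 with adjusted p = 0.00119) and did not pass in batch 190306 (0.49 ± 0.26 with adjusted p = 0.352). Fam19a3, a chemokine-like protein, and Lgals7, galectin-7, were among the largest rises of batch 190306, at 1.88 ± 0.15 (adjusted p = 8.67e-05) and 1.76 ± 0.24 (adjusted p = 0.0025), and were lower in batch 181212, at -1.77 ± 0.16 (adjusted p = 0.000347) and -1.45 ± 0.27 (adjusted p = 0.0121).

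In the other direction, Cxcr5, the receptor that leads T cells to B cell follicles (chromosome 9, 44511787 to 44561877, minus strand), had 43.6 CPM in anti-IL-2 and 5.54 CPM in IgG in batch 181212, 4.09 CPM in anti-IL-2 and 47.0 CPM in IgG in batch 190306, and 34.0 CPM in anti-IL-2 in batch 181201. It rose in batch 181212 by 2.97 ± 0.36 (adjusted p = 0.00599) and fell in batch 190306, at -3.52 ± 0.36 (adjusted p = 0.0034). Ttn, which encodes the muscle protein titin, had 71.0, 85.7 and 13.7 CPM in the anti-IL-2 libraries of batches 181201, 181212 and 190306, against 14.7 and 79.5 CPM in the IgG libraries of batches 181212 and 190306, and its log2 fold changes were 2.54 ± 0.18 (adjusted p = 7.73e-05) and -2.54 ± 0.18 (adjusted p = 4.6e-05). Cd22, a sialic acid binding inhibitory receptor known from B cells, was at 2.36 ± 0.34 (adjusted p = 0.00918) and -1.54 ± 0.27 (adjusted p = 0.0209) in batches 181212 and 190306. Cybb, the catalytic chain of the phagocyte NADPH oxidase, was at 2.30 ± 0.39 (adjusted p = 0.0171) and -2.23 ± 0.47 (adjusted p = 0.0409). B cell markers summed to 3.83 CPM in the anti-IL-2 and 3.55 CPM in the IgG library of batch 181212, while macrophage and monocyte markers summed to 57.4 CPM in anti-IL-2 and 49.1 CPM in IgG there. In batch 190306 the B cell sum was 4.09 CPM in anti-IL-2 and 3.72 CPM in IgG, and the macrophage sum was 28.1 CPM in anti-IL-2 and 43.9 CPM in IgG. The part of such cells in Cd22 and Cybb was not tested. Setbp1, Car2 (carbonic anhydrase 2) and Dclk1 (a microtubule-associated kinase) rose in batch 181212 at 1.60, 1.65 and 1.5, and passed in batch 190306 in no case (-0.81, -0.57 and -0.43). In batch 190306 Iigp1, an interferon-induced GTPase, Il6ra, the IL-6 receptor, and Nav2, a cytoskeletal protein, fell (-2.14 ± 0.32 with adjusted p = 0.00441, -2.21 ± 0.25 with adjusted p = 0.00145 and -2.51 ± 0.50 with adjusted p = 0.0312).

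Follicular helper and naive or memory lists had medians above 0 in batch 181212 and below 0 in batch 190306, while many members were not called. Of 15 tested follicular helper genes, 8 rose in batch 181212 with a median of 0.74, while in batch 190306 6 fell and 1 rose with a median of -0.84. The share called higher over all genes was 3.67% in batch 181212, and the share called lower was 1.93% in batch 190306. Bcl6, the lineage's main transcription factor, rose in batch 181212 by 0.72 ± 0.15 (adjusted p = 0.0172) and was at -0.18 ± 0.14 (adjusted p = 0.522) in batch 190306. Il21, the cytokine of these cells, rose in batch 181212 by 1.48 ± 0.23 (adjusted p = 0.00972) and was at -0.69 ± 0.23 (adjusted p = 0.146). Tox2, a nuclear factor, and Cd200, a surface ligand, were at 1.53 ± 0.30 (adjusted p = 0.0269) and 1.13 ± 0.17 (adjusted p = 0.00414) in batch 181212 and at -2.27 ± 0.30 (adjusted p = 0.00758) and -1.40 ± 0.17 (adjusted p = 0.00129) in batch 190306. Pdcd1, which encodes PD-1 and is a member of this list, rose in both batches and is described with the genes of common direction.

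Of 18 naive and memory genes, 7 rose and 1 fell in batch 181212 (median 0.57), and 6 fell in batch 190306 (median -0.61). Among all genes, 6.92% passed in batch 181212 and 4.62% in batch 190306. Tcf7, the transcription factor TCF1, had 419 CPM in anti-IL-2 and 204 CPM in IgG in batch 181212, 142 CPM in anti-IL-2 and 687 CPM in IgG in batch 190306, and 428 CPM in anti-IL-2 in batch 181201. It rose by 1.04 ± 0.18 (adjusted p = 0.016) in batch 181212 and was at -2.27 ± 0.18 (adjusted p = 0.00082) in batch 190306, so the IgG library of batch 190306 was the highest of all 5. Ccr7, the receptor for lymph node entry, was at 2.16 ± 0.25 (adjusted p = 0.00118) and -2.13 ± 0.20 (adjusted p = 0.000313). Eomes, a T-box factor, had 20.7, 26.4 and 1.44 CPM in the anti-IL-2 libraries of batches 181201, 181212 and 190306, against 1.94 and 11.4 CPM in the IgG libraries of batches 181212 and 190306, and it passed in neither batch, at 3.76 ± 0.81 (adjusted p = 0.0715) and -2.98 ± 0.90 (adjusted p = 0.178).

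Th17 genes, which serve mucosal defence, also had a median above 0 in batch 181212 and below 0 in batch 190306. Of 12 tested, 4 rose and 1 fell in batch 181212, where 6.92% of all genes passed, with a median of 1.23. In batch 190306, where 4.62% passed, 5 fell and 1 rose with a median of -1.55. Il17a, the signature cytokine, had 14.2 CPM in anti-IL-2 and 4.05 CPM in IgG in batch 181212, 2.47 CPM in anti-IL-2 and 13.3 CPM in IgG in batch 190306, and 10.99 CPM in anti-IL-2 in batch 181201. It was at 1.81 ± 0.38 (adjusted p = 0.0199) in batch 181212 and at -2.42 ± 0.39 (adjusted p = 0.00614) in batch 190306. Il17f was at 2.87 ± 0.70 (adjusted p = 0.0339) and -3.97 ± 0.74 (adjusted p = 0.0128), and Ccr6, a mucosal homing receptor of these cells, at 2.74 ± 0.29 (adjusted p = 0.00072) and -2.88 ± 0.31 (adjusted p = 0.00082). Rora, a nuclear receptor of these cells, had 283, 312 and 113 CPM in the anti-IL-2 libraries of batches 181201, 181212 and 190306, against 278 and 273 CPM in the IgG libraries of batches 181212 and 190306, and fell in batch 190306 (-1.28 ± 0.09 with adjusted p = 4.6e-05) with no call in batch 181212 (0.17 ± 0.08 with adjusted p = 0.267). The called member that went the other way was Ahr, described above.

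Th2 genes had medians opposite in sign to those of Th17 genes in both batches. Of 10 tested, 3 fell and 1 rose in batch 181212 (median -0.53), and 3 rose and 1 fell in batch 190306 (median 0.58). Passing genes were 6.92% of all tested in batch 181212 and 4.62% in batch 190306. Gata3, the lineage's transcription factor, fell in batch 181212, at -0.59 ± 0.13 (adjusted p = 0.0229), and was at 0.25 ± 0.13 (adjusted p = 0.32) in batch 190306. Il13, a Th2 cytokine, was at -1.92 ± 0.51 (adjusted p = 0.0473) and 2.23 ± 0.37 (adjusted p = 0.00633). The called member that moved against the other called ones was Il10, a cytokine shared with regulatory cells. Among 18 Th1 and inflammatory genes, 3 fell and 1 rose in batch 181212, and 2 fell in batch 190306. Il18rap and Il12rb1, receptor chains for IL-18 and IL-12, fell in batch 181212 (-0.68 ± 0.10 with adjusted p = 0.00453 and -0.69 ± 0.16 with adjusted p = 0.0328). Ifng, interferon gamma, was at -0.24 ± 0.67 (adjusted p = 0.878) and -0.64 ± 0.67 (adjusted p = 0.687), Tbx21, the Th1 factor T-bet, at -0.09 ± 0.15 (adjusted p = 0.778) and -0.003 ± 0.15 (adjusted p = 1), and Csf2, GM-CSF, at -0.45 ± 0.25 (adjusted p = 0.329) and -0.55 ± 0.24 (adjusted p = 0.242), with no call in either batch.

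Regulatory T cell genes were mixed. Foxp3, their defining transcription factor (chromosome X, 7573644 to 7595245, plus strand), had 164 CPM in anti-IL-2 and 61.7 CPM in IgG in batch 181212, 54.3 CPM in anti-IL-2 and 98.6 CPM in IgG in batch 190306, and 144 CPM in anti-IL-2 in batch 181201. It rose in batch 181212 by 1.41 ± 0.28 (adjusted p = 0.0312) and did not pass in batch 190306 (-0.86 ± 0.28 with adjusted p = 0.158), and the difference between the batches passed the test (2.27 ± 0.40 with adjusted p = 0.0125). Il10 rose by 1.29 ± 0.23 (adjusted p = 0.0123) in batch 181212 and fell in batch 190306, at -1.36 ± 0.24 (adjusted p = 0.0127). Lrrc32, which presents latent TGF-beta, did likewise (1.42 ± 0.35 with adjusted p = 0.0379 and -1.70 ± 0.35 with adjusted p = 0.0231), while Ikzf2, the factor Helios, passed in neither batch (1.63 ± 0.41 with adjusted p = 0.0905 and -1.31 ± 0.42 with adjusted p = 0.186). Fgl2, a secreted immunoregulator, and Nt5e, the ectonucleotidase CD73, went the opposite way: both fell in batch 181212 (-0.79 ± 0.14 with adjusted p = 0.00998 and -0.43 ± 0.11 with adjusted p = 0.0368) and rose in batch 190306 (1.02 ± 0.14 with adjusted p = 0.00297 and 0.95 ± 0.11 with adjusted p = 0.00121). Of 18 genes of this list, 3 rose and 2 fell in batch 181212, where 6.92% of all genes passed. In batch 190306, where 4.62% did, 7 rose and 2 fell. Foxp3 had a direct difference in log2 CPM of 1.41 in gut CD4 cells of batch 181212, against -0.04 and -0.13 in spleen CD4 cells of batches 181201 and 181212. The test of gut against spleen gave 1.5 ± 0.35 (adjusted p = 0.0751), which missed the threshold.

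Type I interferon response genes, which limit viral replication, gave higher calls in batch 181212 and lower calls in batch 190306. Of 40 tested, 19 rose and 0 fell in batch 181212 (median 0.63, against -0.0042 for all genes). In batch 190306 0 rose and 16 fell (median -0.52, against 0.02). Calls over all genes were 3.67% higher in batch 181212 and 1.93% lower in batch 190306. Ifi27l2a, an interferon-induced mitochondrial protein, had 161, 161 and 74.9 CPM in the anti-IL-2 libraries of batches 181201, 181212 and 190306, against 59.8 and 183 CPM in the IgG libraries of batches 181212 and 190306. It was at 1.43 ± 0.10 (adjusted p = 7.73e-05) in batch 181212 and at -1.29 ± 0.10 (adjusted p = 6.52e-05) in batch 190306. Mx1, an interferon-induced GTPase (chromosome 16, 97447035 to 97462907, minus strand), had 25.8 CPM in anti-IL-2 and 9.09 CPM in IgG in batch 181212, 6.47 CPM in anti-IL-2 and 10.9 CPM in IgG in batch 190306, and 21.7 CPM in anti-IL-2 in batch 181201, with log2 fold changes of 1.5 ± 0.14 and -0.76 ± 0.15. Trim30d and Trim30a, TRIM proteins of the mouse, rose in batch 181212 (1.47 ± 0.20 with adjusted p = 0.00288 and 0.70 ± 0.10 with adjusted p = 0.00288) and fell in batch 190306 (-1.13 ± 0.21 with adjusted p = 0.0129 and -0.50 ± 0.10 with adjusted p = 0.0131). Of the 40 genes, 28 passed the test of the difference between batches. The same list had median differences in spleen CD4 cells of 0.67, 0.74 and -0.63 in batches 181201, 181212 and 190306.

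The IFITM genes, antiviral membrane proteins also induced by interferon, had medians of the opposite sign in each batch. Ifitm3 had 43.1, 41.5 and 466 CPM in the anti-IL-2 libraries of batches 181201, 181212 and 190306, against 258 and 134 CPM in the IgG libraries of batches 181212 and 190306. None of the 5 members passed in batch 181212 (Ifitm3 at -2.64 ± 0.49 with adjusted p = 0.0516), and 1, Ifitm6, rose in batch 190306 (4.47 ± 0.86 with adjusted p = 0.014). Ifitm1, Ifitm2 and Ifitm3 were lowest in the anti-IL-2 libraries of batches 181201 and 181212 and highest in that of batch 190306. Among 13 MHC class I genes, 2 rose in batch 181212, B2m, the light chain of MHC class I (0.46 ± 0.07 with adjusted p = 0.00408), and H2-Q7, a nonclassical heavy chain (0.73 ± 0.14 with adjusted p = 0.0133). In batch 190306 1 fell, Nlrc5, the transactivator of these genes (-0.56 ± 0.10 with adjusted p = 0.00929). For comparison, 6.92% of all genes passed in batch 181212 and 4.62% in batch 190306.

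**Figure D3:**
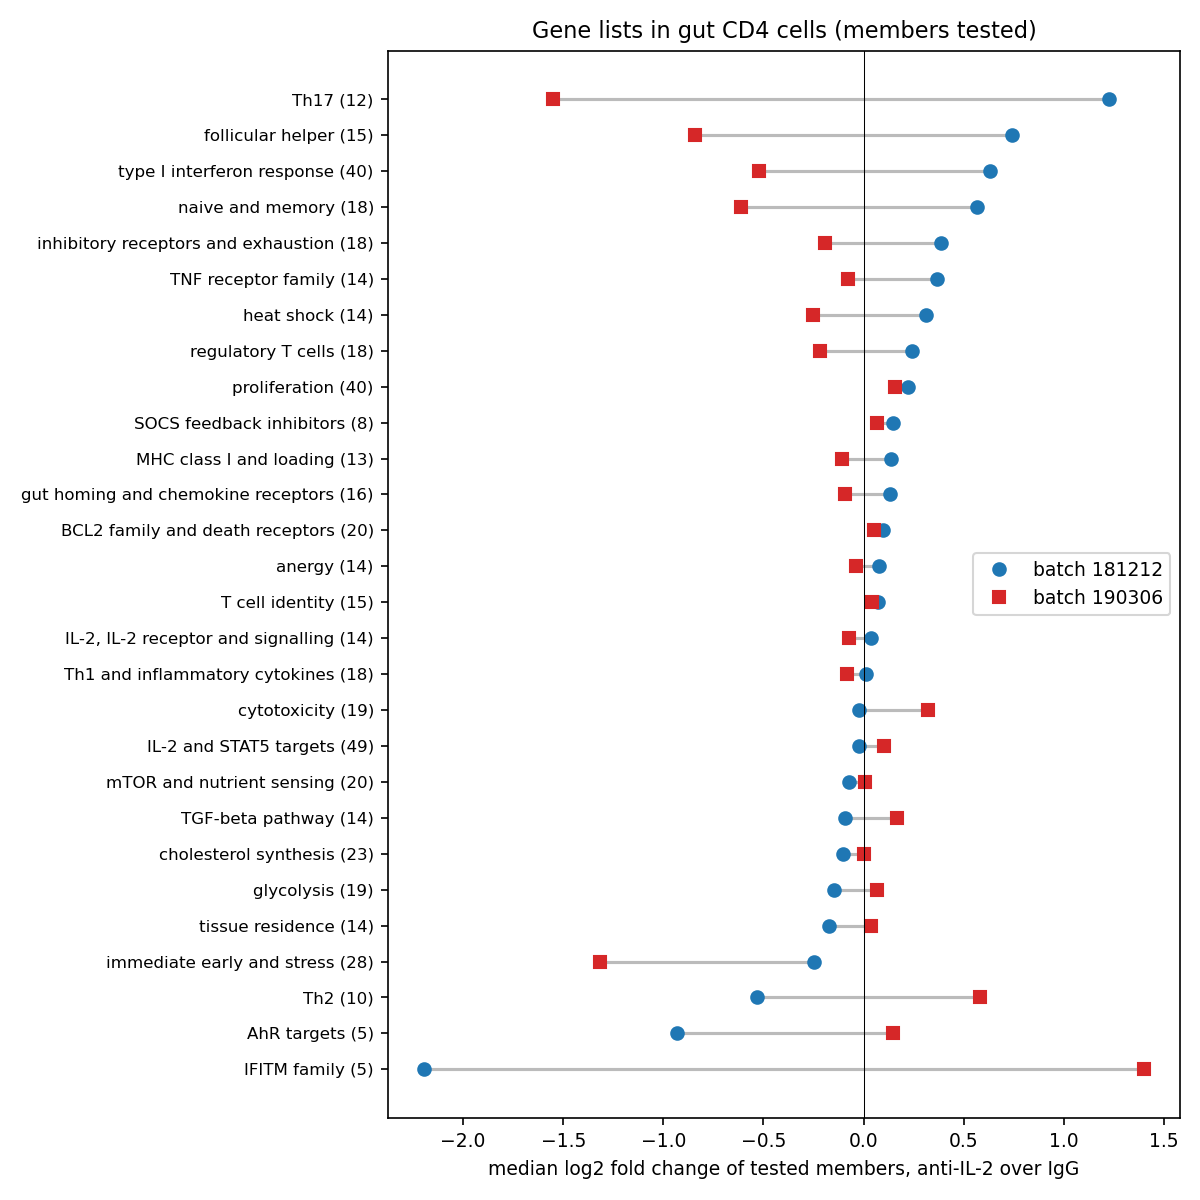
Median log2 fold change of anti-IL-2 over IgG (horizontal) of the tested members of 28 gene lists (rows, with the number tested) in batch 181212 (circles) and batch 190306 (squares). Th17, follicular helper, interferon and naive or memory lists lie right of 0 in batch 181212 and left of 0 in batch 190306, while the IFITM and Th2 lists lie the other way round.

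Receptors that restrain or costimulate T cells gave more higher than lower calls in batch 181212. Of 18 inhibitory receptor and exhaustion genes, 6 rose and 0 fell there, and 5 rose and 3 fell in batch 190306. Over all genes, 3.67% were called higher and 3.25% lower in batch 181212, and 2.68% higher and 1.93% lower in batch 190306. Btla, an inhibitory receptor, was at 1.02 ± 0.17 (adjusted p = 0.0132) and -0.84 ± 0.17 (adjusted p = 0.0309), and Tox, a factor of exhausted cells, at 1.23 ± 0.27 (adjusted p = 0.0486) and -1.08 ± 0.27 (adjusted p = 0.0894). Of 14 genes of the TNF receptor family, 6 rose and 0 fell in batch 181212, and 1 rose and 4 fell in batch 190306. Tnfsf8, the ligand CD30L, was at 1.19 ± 0.17 (adjusted p = 0.00465) and -0.88 ± 0.16 (adjusted p = 0.015), and Ltb, lymphotoxin beta, at 0.52 ± 0.09 (adjusted p = 0.00901) and -0.54 ± 0.09 (adjusted p = 0.00729). Cd27, a costimulatory receptor, and Tnfrsf1b, TNF receptor 2, rose in batch 181212 (0.61 ± 0.09 with adjusted p = 0.00362 and 0.43 ± 0.09 with adjusted p = 0.0159) with no call in batch 190306 (-0.25 ± 0.09 with adjusted p = 0.144 and 0.12 ± 0.09 with adjusted p = 0.472).

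Homing genes were called in both directions in each batch. Itga4, the alpha 4 chain of the gut homing integrin, had 1555 CPM in anti-IL-2 and 848 CPM in IgG in batch 181212, 387 CPM in anti-IL-2 and 606 CPM in IgG in batch 190306, and 1477 CPM in anti-IL-2 in batch 181201. It rose in batch 181212 by 0.88 ± 0.15 (adjusted p = 0.0123) and fell in batch 190306, at -0.65 ± 0.15 (adjusted p = 0.0451). Its partner Itgb7 passed in neither (-0.38 ± 0.11 with adjusted p = 0.0719 and 0.32 ± 0.11 with adjusted p = 0.15). Ccr9, the receptor for the small bowel chemokine, had 393, 259 and 37.8 CPM in the anti-IL-2 libraries of batches 181201, 181212 and 190306, against 372 and 42.2 CPM in the IgG libraries of batches 181212 and 190306. It passed in neither batch (-0.52 ± 0.15 with adjusted p = 0.0738 and -0.16 ± 0.17 with adjusted p = 0.67), and the batches lay further apart than the treatments within them. Itga1, a collagen-binding integrin chain of resident cells, fell in batch 181212 (-1.03 ± 0.17 with adjusted p = 0.01) and rose in batch 190306 (0.93 ± 0.17 with adjusted p = 0.0174). Itgae, the CD103 chain that binds epithelial cadherin, passed in neither (0.33 ± 0.29 with adjusted p = 0.575 and 0.55 ± 0.31 with adjusted p = 0.413). Of 16 gut homing and chemokine receptor genes, 4 rose and 2 fell in batch 181212, where 6.92% of all genes passed, and 2 rose and 5 fell in batch 190306, where 4.62% did. Of 14 tissue residence genes, 1 rose and 2 fell in batch 181212, and 2 rose and 1 fell in batch 190306.

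Calls in the glycolysis, cholesterol and mTOR lists are set against 6.92% of all genes called in batch 181212 and 4.62% in batch 190306. Among 19 glycolysis genes 0 rose and 1 fell in batch 181212 and 0 passed in batch 190306. Among 23 cholesterol synthesis genes 0 rose and 1 fell in batch 181212 (Srebf2, their transcription factor, -0.34 ± 0.08 with adjusted p = 0.0282), and 1 rose in batch 190306. Of 20 mTOR and nutrient sensing genes, 1 rose and 1, Deptor, fell in batch 181212, and 2 rose in batch 190306, among them Ddit4, another mTOR inhibitor (1.09 ± 0.15 with adjusted p = 0.00441). Of 20 genes of the BCL2 family and death receptors, 2 rose and 1 fell in batch 181212. Fas, a death receptor, was among those that rose (0.87 ± 0.16 with adjusted p = 0.0114), and Bbc3, the death inducer PUMA, fell (-1.10 ± 0.17 with adjusted p = 0.00465). Both had the opposite direction in batch 190306 (-0.81 ± 0.16 with adjusted p = 0.0157 and 0.73 ± 0.16 with adjusted p = 0.0264). TGF-beta pathway genes had 0 calls of 14 in batch 181212 and 3 higher in batch 190306, among them Ski, an inhibitor of SMAD proteins (0.71 ± 0.09 with adjusted p = 0.0015). Of 14 anergy genes, 1 rose and 2 fell in batch 181212, where 6.92% of all genes passed, and 4 rose and 1 fell in batch 190306, where 4.62% did. Of 5 AhR target genes, 1 fell in batch 181212, and 1 rose and 1 fell in batch 190306. Ahr was the one that fell in batch 181212 and rose in batch 190306, and Il22, a cytokine of mucosal defence, was the one that fell there.

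No test of the overlap was made, and a small set of genes was called in the same direction in both batches. It holds 10 of 12782 genes (0.0782%), of which 7 were higher and 3 lower in the libraries labelled anti-IL-2. Pdcd1 (chromosome 1, 94038305 to 94052553, minus strand) had 365 CPM in anti-IL-2 and 268 CPM in IgG in batch 181212, 538 CPM in anti-IL-2 and 409 CPM in IgG in batch 190306, and 373 CPM in anti-IL-2 in batch 181201. It was at 0.44 ± 0.09 (adjusted p = 0.0167) in batch 181212 and 0.40 ± 0.09 (adjusted p = 0.0303) in batch 190306, and within each batch the anti-IL-2 library was the higher one, although the groups overlapped across batches. Tnfrsf9, the costimulatory receptor 4-1BB, was at 0.45 ± 0.12 (adjusted p = 0.0496) and 0.66 ± 0.12 (adjusted p = 0.01). Sema7a, a membrane-anchored semaphorin, was at 0.36 ± 0.09 (adjusted p = 0.0339) and 0.74 ± 0.09 (adjusted p = 0.00121). Rad54l, a DNA repair protein, Plcxd2, a phospholipase domain protein, and Zfp866, a zinc finger protein, had log2 fold changes of 0.65, 0.38 and 0.46 in batch 181212 and 0.59, 0.48 and 0.52 in batch 190306. Zfp866 had 36.0, 35.6 and 30 CPM in the anti-IL-2 libraries of batches 181201, 181212 and 190306, against 25.9 and 20.9 CPM in the IgG libraries of batches 181212 and 190306, so all 3 anti-IL-2 libraries lay above both IgG libraries.

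Tmem230, which encodes a membrane protein of vesicles, had 10.1 CPM in anti-IL-2 and 37.0 CPM in IgG in batch 181212, 5.97 CPM in anti-IL-2 and 13.9 CPM in IgG in batch 190306, and 12.4 CPM in anti-IL-2 in batch 181201. It fell in batch 181212, at -1.88 ± 0.17 (adjusted p = 0.000347), and in batch 190306, at -1.21 ± 0.18 (adjusted p = 0.00435), and all 3 anti-IL-2 libraries lay below both IgG libraries. Ccnl1, a cyclin that takes part in splicing, was at -0.56 ± 0.14 (adjusted p = 0.0481) and -0.63 ± 0.14 (adjusted p = 0.0384). Gut CD8 cells moved likewise, with direct differences in batches 181212 and 190306 of -1.49 and -0.66 for Tmem230 and -0.55 and -0.57 for Ccnl1. The other 2 genes, Dmbt1 and Apol8, lay under the level set for named genes and are named after their values were seen. Apol8, of the apolipoprotein L family, was lower in both batches. Dmbt1, a glycoprotein secreted by mucosal epithelium, had 17.8, 13.3 and 1.66 CPM in the anti-IL-2 libraries of batches 181201, 181212 and 190306, against 0.554 and 0.115 CPM in the IgG libraries of batches 181212 and 190306. The 20 gut epithelium markers summed to 146, 77.2 and 129.7 CPM in the same anti-IL-2 libraries and to 66.4 and 40.2 CPM in the IgG libraries, and their part in Dmbt1 was not tested. Without Cdh1 the sums of the other 19 were 131, 62.7 and 40.7 CPM in the anti-IL-2 libraries, against 38.2 and 24.8 CPM in the IgG libraries. Over all 22 libraries, with batch as a term, none of the 10 genes passed. DESeq2 called 2 genes in the same direction in both batches.

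Proliferation genes differed between gut and spleen CD4 cells in their treatment difference of batch 181212. Of 40 tested in gut CD4 cells, 9 rose and 0 fell in batch 181212 (median 0.22), and 0 passed in batch 190306 (median 0.16). Among all genes, 3.67% rose and 3.25% fell in batch 181212, and 4.62% passed in batch 190306. Top2a, a topoisomerase of dividing cells, rose in batch 181212 by 0.66 ± 0.09 (adjusted p = 0.00299) and was at -0.07 ± 0.09 (adjusted p = 0.753) in batch 190306, and Mcm5, a part of the replicative helicase, was at 0.50 ± 0.10 (adjusted p = 0.0167) and 0.06 ± 0.10 (adjusted p = 0.796). Mki67, the proliferation marker Ki-67, had 669, 879 and 766 CPM in the anti-IL-2 libraries of batches 181201, 181212 and 190306, against 777 and 787 CPM in the IgG libraries of batches 181212 and 190306, and passed in neither batch (0.18 ± 0.08 with adjusted p = 0.197 and -0.04 ± 0.08 with adjusted p = 0.838). In spleen CD4 cells the direct difference in Mki67 was -0.91, -0.79 and 0.58 in log2 CPM in batches 181201, 181212 and 190306. The list's median difference there was -0.73, -0.60 and 0.47. CD8 cells had a like contrast in batch 181212, with medians of 0.11 in gut and -0.36 in spleen. In batch 190306 their medians were 0.46 in gut and 0.38 in spleen.

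The treatment difference in gut CD4 cells of batch 181212 was tested against that in spleen CD4 cells, whose term averages batches 181201 and 181212. This test called 456 genes (3.57%), 330 (2.58%) with a higher value in gut and 126 (0.986%) with a lower one. Of the 40 proliferation genes, 30 were called, all 30 higher in gut, with a median of 0.91; for Mki67 the difference of differences was 1.03 ± 0.09 (adjusted p = 0.00117). Of 19 cytotoxicity genes, 8 were higher and 3 lower. Gzmb gave 1.69 ± 0.12, with direct treatment differences of 0.01 in gut CD4 cells of batch 181212 against -1.60 and -1.77 in spleen CD4 cells of batches 181201 and 181212. In CD8 cells its direct difference was -0.20 in gut of batch 181212, against -1.095 and -1.20 in spleen of batches 181201 and 181212. Gzma gave 0.11 ± 0.20 (adjusted p = 0.835), which did not pass. Il2ra, at 0.91 ± 0.21 (adjusted p = 0.0511), missed the threshold, while Cish and Socs2 passed (0.98 ± 0.17 with adjusted p = 0.0111 and 1.26 ± 0.26 with adjusted p = 0.0224), with smaller falls in gut. Tmem230 went the other way (-2.16 ± 0.22 with adjusted p = 0.00143), with direct differences of 0.33 and 0.23 in spleen CD4 cells. Interferon response genes held 0 higher and 1 lower call of 40. In batch 190306 the same test called 10 genes (0.0782%), 8 higher (0.0626%) and 2 lower (0.0156%) in gut, and Gzmb and Mki67 were at -0.81 ± 0.14 (adjusted p = 0.0587) and -0.62 ± 0.11 (adjusted p = 0.0592).

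**Figure D4:**
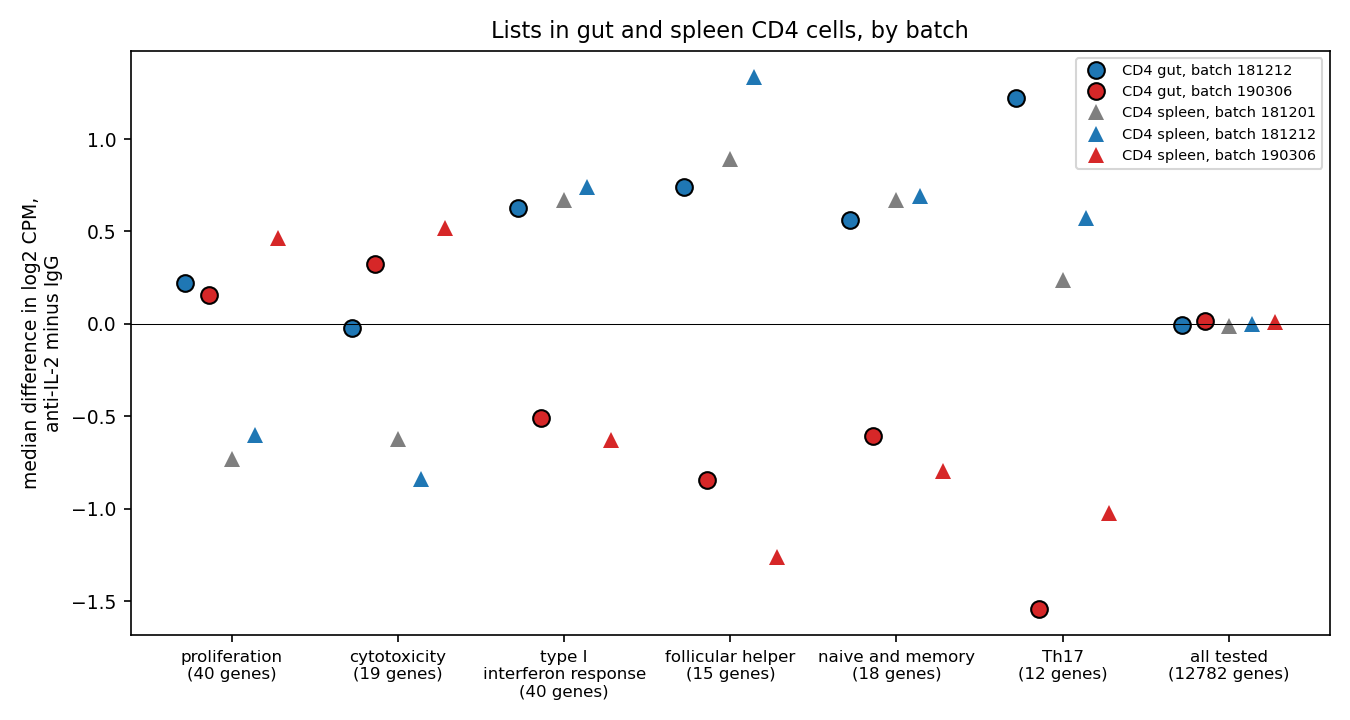
Median difference in log2 CPM, anti-IL-2 minus IgG (vertical), over the members of 6 gene lists and over all 12782 genes tested, in gut (outlined circles) and spleen (triangles) CD4 cells, coloured by batch. Proliferation genes lie above 0 in both gut batches, below 0 in spleen batches 181201 and 181212, and above 0 in spleen batch 190306.

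Within the cytotoxicity list, gut CD4 cells gave 3 higher and 3 lower calls of 19 in batch 181212, and 5 higher and 1 lower in batch 190306. Calls made up 6.92% of all genes in batch 181212 and 4.62% in batch 190306. Klrk1, the receptor NKG2D, fell in batch 181212 (-0.71 ± 0.14 with adjusted p = 0.0189) and rose in batch 190306 (1.32 ± 0.14 with adjusted p = 0.00103), as Gzma did. Gzmk, granzyme K of memory-like cells, had 72.6 CPM in anti-IL-2 and 29.8 CPM in IgG in batch 181212, 7.00 CPM in anti-IL-2 and 25.3 CPM in IgG in batch 190306, and 59.1 CPM in anti-IL-2 in batch 181201. It went against Gzma, at 1.28 ± 0.12 (adjusted p = 0.000567) in batch 181212 and -1.85 ± 0.15 (adjusted p = 0.000115) in batch 190306. Klrb1c, the receptor NK1.1, fell in batch 181212 (-1.22 ± 0.16 with adjusted p = 0.00202), and Cst7, cystatin F, rose there (0.71 ± 0.12 with adjusted p = 0.00859), with no call in batch 190306 (0.14 ± 0.18 with adjusted p = 0.726 and -0.03 ± 0.12 with adjusted p = 0.942).

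Against gut CD8 cells the treatment difference diverged for few genes. In batch 181212 it was 11 (0.0861%), 3 higher (0.0235%) and 8 lower (0.0626%) in CD4 cells, and in batch 190306 it was 4 (0.0313%), 1 higher (0.00782%) and 3 lower (0.0235%). The CD8 term of batch 181212 also draws on the gut CD8 anti-IL-2 library of batch 181201. Deptor and Gzma had lower values in CD4 than in CD8 cells in batch 181212 (-3.52 ± 0.38 with adjusted p = 0.00739 and -2.08 ± 0.22 with adjusted p = 0.0174). Direct differences for Deptor were -3.93 in gut CD4 and -0.18 in gut CD8 cells, and for Gzma -2.12 and -0.09. Mx1 and Gzmk had higher values in CD4 cells (1.34 ± 0.17 with adjusted p = 0.0174 and 1.35 ± 0.16 with adjusted p = 0.0113).

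RNA of other tissues differed between the gut CD4 libraries of batch 181212, and likewise between the gut CD8 libraries of that batch. Adipocyte markers (9 genes, such as the fat hormone Adipoq and the fatty acid carrier Fabp4) summed to 13.2, 55.4 and 0.269 CPM in the anti-IL-2 libraries of batches 181201, 181212 and 190306, against 1.22 and 0.286 CPM in the IgG libraries of batches 181212 and 190306. Pancreatic acinar markers (16 genes) summed to 39.9, 67.9 and 11.05 CPM in anti-IL-2 libraries and 9.59 and 9.28 CPM in IgG libraries. These 2 lists thus were highest in the anti-IL-2 library of batch 181212. The 15 acinar and 7 adipocyte markers tested had median direct differences of 3.61 and 5.40 in batch 181212. Both medians were 0 in batch 190306. In gut CD8 cells they were 3.82 and 3.65 in batch 181212 and -1.04 and -0.61 in batch 190306. Calls for these lists are not given. The fit's spread comes mostly from spleen populations, where Cfd and Cidec had direct differences of 0 in every batch. It thus does not measure how such RNA varies between gut libraries. In gut CD4 cells of batch 181212, Ctrb1, a pancreatic protease precursor, had 17.8 CPM in anti-IL-2 and no count in IgG. A count of 0 there allows up to 0.166 CPM (3 counts), and 11 of the 16 acinar markers had no count in that IgG library. Fibroblast markers (9 genes) summed to 9.63 CPM in anti-IL-2 and 0.721 CPM in IgG of batch 181212. The 5 tested had a median direct difference of 3.21 there, against 4.35 in gut CD8 cells of that batch. Plasma cell markers, mostly Jchain, the joining chain of antibodies, summed to 158 CPM in anti-IL-2 and 20.5 CPM in IgG of batch 181212, and to 25.5 CPM in anti-IL-2 and 210.3 CPM in IgG of batch 190306. The part of this RNA in the T cell results was not tested.

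**Figure D5:**
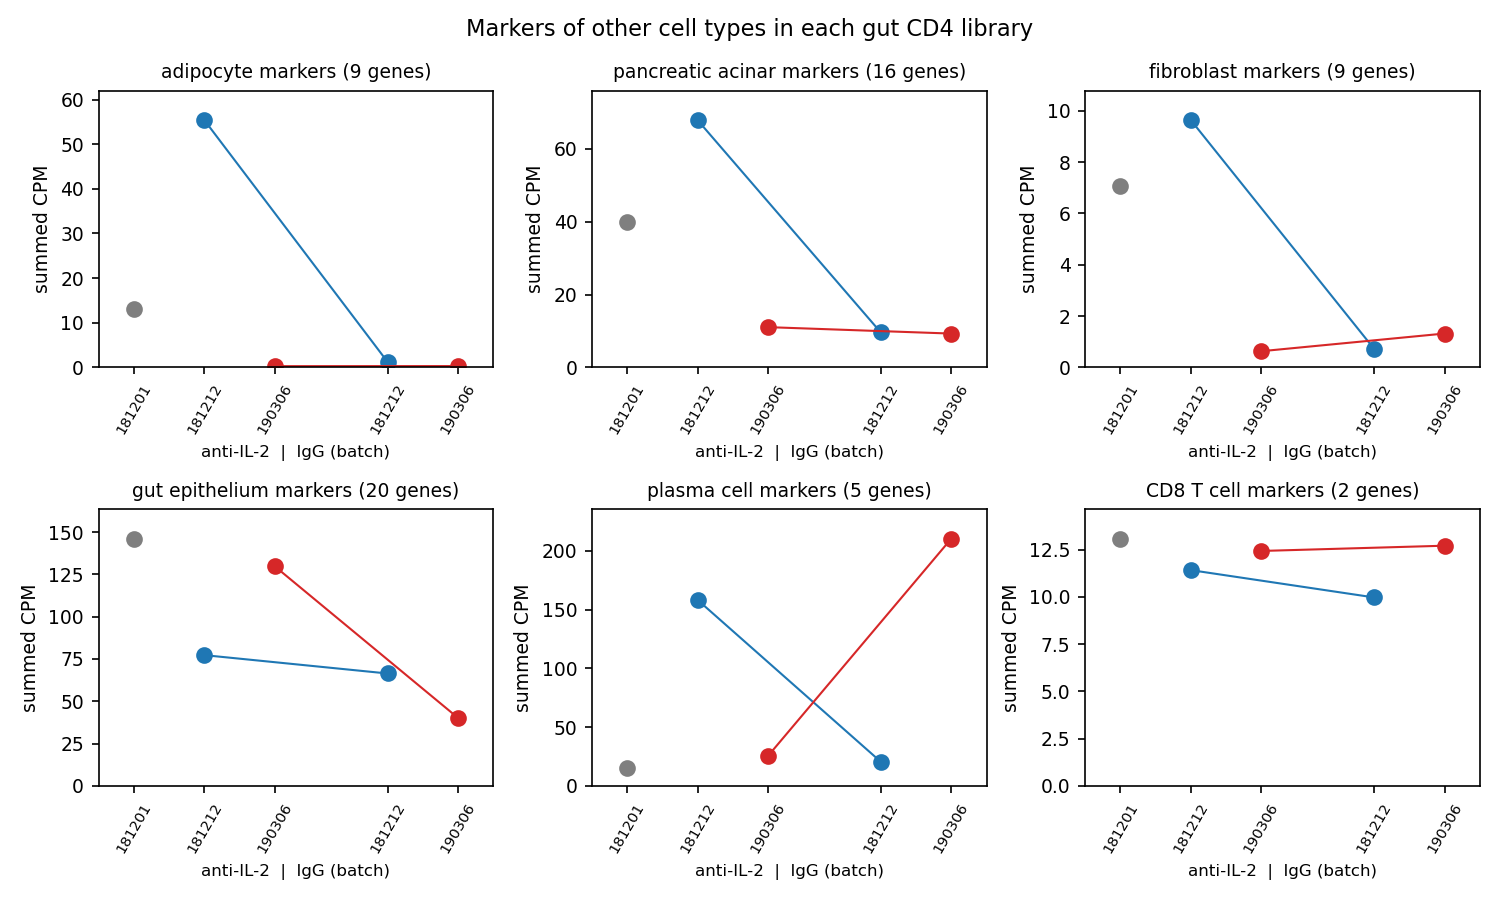
Summed CPM (vertical axes, from 0) of marker lists of other cell types in each gut CD4 library, anti-IL-2 left and IgG right in each panel. Each point is 1 library and lines join libraries of a batch; adipocyte, acinar and fibroblast sums were highest in the anti-IL-2 library of batch 181212, and plasma cell sums were high in 1 library of each paired batch.

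None of the heat shock genes was called, and some immediate early genes were. Of all genes, 6.92% passed in batch 181212 and 4.62% in batch 190306. Hspa1a, an inducible heat shock protein, had 0.746, 114 and 7.00 CPM in the anti-IL-2 libraries of batches 181201, 181212 and 190306, against 1.33 and 18.6 CPM in the IgG libraries of batches 181212 and 190306. Its direct differences in batch 181212 were 6.31 in gut CD4, 6.12 in gut CD8, 4.83 in spleen CD4 and 3.31 in spleen CD8 cells. In batch 190306 they were -1.40, -1.66, -0.44 and -1.36. In batch 181201 they were -2.69 in spleen CD4 and -1.45 in spleen CD8 cells. The fit's spread includes this gap between batches 181201 and 181212, so a heat shock gene without a call is not shown to be unchanged. The 14 tested heat shock genes had median direct differences of 0.31 in batch 181212 and -0.25 in batch 190306. Of 28 immediate early and stress genes, 1 rose and 2 fell in batch 181212, with a median of -0.25. In batch 190306 1 rose and 0 fell, with a median of -1.32. Dusp2, a phosphatase induced on activation, and Gadd45g, a stress protein, fell in batch 181212 (-0.78 ± 0.16 with adjusted p = 0.0223 and -1.14 ± 0.17 with adjusted p = 0.0049), and Nr4a3, a nuclear receptor induced by T cell receptor signals, rose there (0.87 ± 0.15 with adjusted p = 0.00888). Egr2, a transcription factor of T cell tolerance, rose in batch 190306 (0.86 ± 0.19 with adjusted p = 0.0341) and was at 0.07 ± 0.20 (adjusted p = 0.884) in batch 181212.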

How the data were processed

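The authors deposited a table of raw counts per gene symbol (24091 symbols, whole numbers). The submitters' processing notes name TopHat2, HTSeq 0.9.1 and build mm10; the annotation, strand setting and filters are not given in the sources used here, so genes that overlap or have near-identical copies may share reads. The kit kept strand and took mRNA, per the labels' protocols. Of the symbols, 23509 matched GENCODE release M21 of the same build, the source of gene coordinates. For the 5 CD8 IgG libraries the description names the other tissue, and the tissue label was used.

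The analysis used edgeR 4.0.16 in R 4.3.3 (filterByExpr, TMM, robust quasi-likelihood test). The fit of differences within batches held 21 libraries, without the gut CD4 library of batch 181201: 8 groups, a term for batches 181201 and 181212, and a coefficient for each library of batch 190306. An SE is the log2 fold change divided by the square root of its F statistic. The fit over all batches held 22 libraries with batch as a term and 12 residual degrees of freedom. CPM used TMM sizes, and log2 CPM a prior count of 2; direct differences are of log2 CPM. DESeq2 1.42.0, limma 3.58.1 (voom) and other alternatives were tried. Fits were tested on simulated data drawn with the spread that the fit itself estimated. The simulation therefore could not test whether gut CD4 libraries vary like the other populations. Counts and their limits cover counting error only, and p-values measure spread between libraries, which may be technical.

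The gut CD4 libraries, the 43 gene lists and the rules for named genes were chosen with earlier results of these data known. Named were the 12 largest changes per direction in batch 181212 and 8 in batch 190306 past 0.05 whose mean log2 CPM was 3 or more, up to 10 per direction shared by both, up to 5 members per list with the smallest p in batch 181212, up to 4 per direction of each comparison with spleen CD4 or gut CD8 cells, and fixed genes of the IL-2 pathway and T cell lineages. Clone names, receptor segments and markers of other cells were left out of the largest changes. Of the list symbols, 6 were absent from the table. Single-gene values of a few list members are not reported here.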

Additional observations from a re-analysis of the deposited data

Results flagged for a closer look

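Some named genes had a treatment difference in gut CD4 cells that differed from another population by the edgeR test of that difference (adjusted p under 0.05 over 12782 genes). Values are differences of log2 fold changes, gut CD4 cells minus the other population, and the spleen term of batch 181212 averages batches 181201 and 181212.

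Against spleen CD4 cells in batch 181212, the value was higher in gut for Miat, a long noncoding RNA (2.53), Csf2 (1.83), Gzmb (1.69) and Vash1 (1.57). It was lower for Tmem230 (-2.16), Galnt9 (-1.74), Il1r2, a decoy receptor for IL-1 (-1.71), and Esm1 (-1.71). Against spleen CD4 cells in batch 190306, Egr2 (2.27), Ldlrad4 (1.60), Nt5e (1.53) and Rflnb (1.35) had higher values in gut, and Rora (-1.35) and Adam8, a surface metalloprotease (-0.98), had lower ones. Nt5e, Rflnb and Ldlrad4 also passed in batch 181212, with the opposite sign, at -1.20, -1.57 and -1.14.

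Against gut CD8 cells in batch 181212, Gzmk (1.35) and Mx1 (1.34) had higher values in CD4 cells, and Deptor (-3.53), Pltp, a phospholipid transfer protein (-2.18), Ccr9 (-2.11) and Gzma (-2.08) had lower ones. Against gut CD8 cells in batch 190306, Esm1 (-2.95) and Gzmk (-2.38) had lower values in CD4 cells. Gzmk thus had opposite signs in the batches. No gut CD4 group has 4 libraries, so no library was examined as an outlier.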

How the results depend on the processing

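Within a batch each treatment is 1 library, so neither can be left out, and calls rest on the spread of other populations. The labels pair libraries by batch and not by replicate number, and the fit over all batches, with batch as the block, called 0 genes, as it did with no batch term. DESeq2 called fewer genes: 347 in batch 181212, 268 in batch 190306, 701 for the difference between batches, 2 in the same and 116 in opposite directions in both batches, and 278 for gut against spleen in batch 181212; it called more for gut against spleen (32) and for CD4 against CD8 cells (14) in batch 190306. Counts with a log2 fold change of at least 1 were 311, 236 and 728 for batch 181212, batch 190306 and their difference, 3 in the same and 109 in opposite directions. With the batch 181201 library in the fit, 1556 genes passed in batch 181212 and 17 in the same direction in both. With no filter on low counts, gut against spleen in batch 190306 gave 36, and CD4 against CD8 cells 20 and 10 in batches 181212 and 190306. Over all batches, the count of 0 became 8 in DESeq2 and 1 with DESeq2 size factors in edgeR. Leaving out 1 library moved it between 0 and 2, with 2 without the anti-IL-2 library of batch 181212 and 1 without the IgG library of batch 190306. Leaving out 1 library of another population in turn, chosen after seeing the data, gave 611 to 1065 calls in batch 181212, 436 to 714 in batch 190306, 1142 to 1617 for their difference, 188 to 321 opposite and 5 to 16 in the same direction. That last count was 5 without the CD8 spleen IgG library of batch 181201 or 181212 or the CD8 spleen anti-IL-2 library of batch 181201, and 16 without the CD8 gut anti-IL-2 library of batch 181201 or 181212. Apart from the smaller sets that a fold minimum leaves, the cause of these shifts was not tested. For single named genes, 2552 values within batches were recomputed, and 98 lost their call, 57 of them in DESeq2, while 73 gained one. None changed sign where called, and 28 changed sign where called in neither fit. Genes of a few CPM are limited by depth.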
